A study of Oryza coarctata with 5 samples.

Results

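The step from 450 mM to 700 mM NaCl was examined in mature plants of *Oryza coarctata* (*Porteresia*), by setting 1 RNA-sequencing library of plants in 700 mM NaCl against 1 library of plants in 450 mM NaCl. These are 2 of the 5 libraries of the series. Transcripts entered the comparison when their RPKM (reads of a transcript divided by its length and by the library's read total) was at least 1 in either salt library and above 0 in all 5 libraries. That left 67930 of 152367 listed transcripts (44.6%). The other 3 libraries were a water control, plants submerged in water, and plants submerged in 450 mM NaCl. All plants came from natural conditions, without a named strain, age or genotype in the labels, and the sources used here do not give the number of plants, their organs or the duration of each treatment. With 1 library for each treatment, the spread between plants is unknown, no test was possible, and no p-value is given.

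*Oryza coarctata* is a wild relative of rice that lives on tidal, saline mud and excretes salt through hairs on its leaves. High NaCl draws water out of plant cells and also loads them with sodium, and plants are known to respond with ion transport, compatible solutes and slower growth. Whether a higher dose extends the same response or draws in other transcripts is the question that a step between doses addresses. The transcripts carry assembly numbers without gene names, so pathway and marker lists could not be matched, and the labelled plant material could not be checked against marker genes. In RNA from plants whose sampled organs are not named, fewer cells of a type and less RNA per cell cannot be told apart.

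Depth was similar in the libraries compared, with 59818916 reads at 450 mM and 58431827 at 700 mM, and totals ran from 56638113 to 78997383 across all 5 libraries. Read numbers and transcript lengths were solved from the whole-number steps of the RPKM values. Over the transcripts compared, the median was 112 reads at 450 mM and 115 at 700 mM. Ratios are given as log2((RPKM at 700 mM + 0.5)/(RPKM at 450 mM + 0.5)), the log2 ratio of the step, which understates differences of low transcripts. A transcript is called higher or lower by size alone, at 2-fold or more on that scale. Intervals are exact 95% intervals, and they cover counting error only, since reads made by PCR are not independent molecules.

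The demand for a value above 0 in every library removed 2908 of the 70838 transcripts that reached RPKM 1 in either salt library. Of these 2908, 1777 were at 0 at 700 mM, 70 were at 0 at 450 mM, and 1061 were at 0 only in libraries outside the step. The removed transcripts include 1792 that would have been called lower and 466 that would have been called higher. Just inside the limit of RPKM 1, Pc_TC100638 stood at 1.0 at 450 mM and 0.87 at 700 mM, with 60 and 51 reads. Just outside it, Pc_TC006925 stood at 1.0 (just under, before rounding) and 0.755, with 145 and 107 reads.

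Between 450 mM and 700 mM NaCl most transcripts differed little, and among transcripts with a value above 0 in every library those that did differ by 2-fold were mostly higher at the higher dose. The median log2 ratio of the step was 0.01, with an interquartile range from −0.23 to 0.31, and 75.8% of transcripts lay within 0.5 of 0. Transcripts higher at 700 mM numbered 2365 (3.48%) and those lower numbered 808 (1.19%). Higher transcripts thus made up 74.5% of 3173 calls. At 4-fold or more, 75 were higher (0.11%) and 64 were lower (0.0942%). Over the higher transcripts the median log2 ratio was 1.22, and the median reads were 16 at 450 mM and 57 at 700 mM. Over the lower transcripts the median log2 ratio was −1.19, and the median reads were 63.5 and 15. Each median was taken separately, so these values do not belong to a single transcript. For each of the 2365 and the 808, the interval of the ratio of reads excluded 1. The limits on size, RPKM and length largely set this in advance, so it is no check of the calls. For 1134 and 365 of them the interval lay wholly beyond 2-fold. The counts depend on the constant added to RPKM, with 4441 higher and 1831 lower transcripts after adding 0.1, and 1023 and 338 after adding 1. They also depend on the filter: without the demand on zeros 2831 were higher and 2600 lower, so 52.1% of calls were higher, and with RPKM of at least 0.5 in all 5 libraries 802 were higher and 438 lower (64.7%).

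The step had a different balance at each expression level. Transcripts with a mean RPKM under 1 over the 5 libraries (n = 8054) had a median log2 ratio of 0.41, and 74.9% of them were above 0. The median was 0.08 at mean RPKM 1 to 3 (n = 26250) and −0.03 at 3 to 10 (n = 19325). Above that it was −0.10 at 10 to 30, −0.10 at 30 to 100, −0.12 at 100 to 300 and −0.14 at 300 and over, in 9611, 3842, 725 and 123 transcripts. The value of the lowest level is bound to the filter, because a transcript with a mean under RPKM 1 was admitted by a salt library in which it reached RPKM 1. Over all levels, 8071 transcripts were admitted by the 700 mM library alone and 4664 by the 450 mM library alone. With RPKM of at least 0.5 in all 5 libraries the median over all levels was −0.028, below 0. The median-of-ratios factor of the 700 mM library was 0.05 above that of the 450 mM library on the log2 scale, and because of the constant of 0.5 such scaling moves the log2 ratios of single transcripts by unequal amounts.

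**Figure D1:**
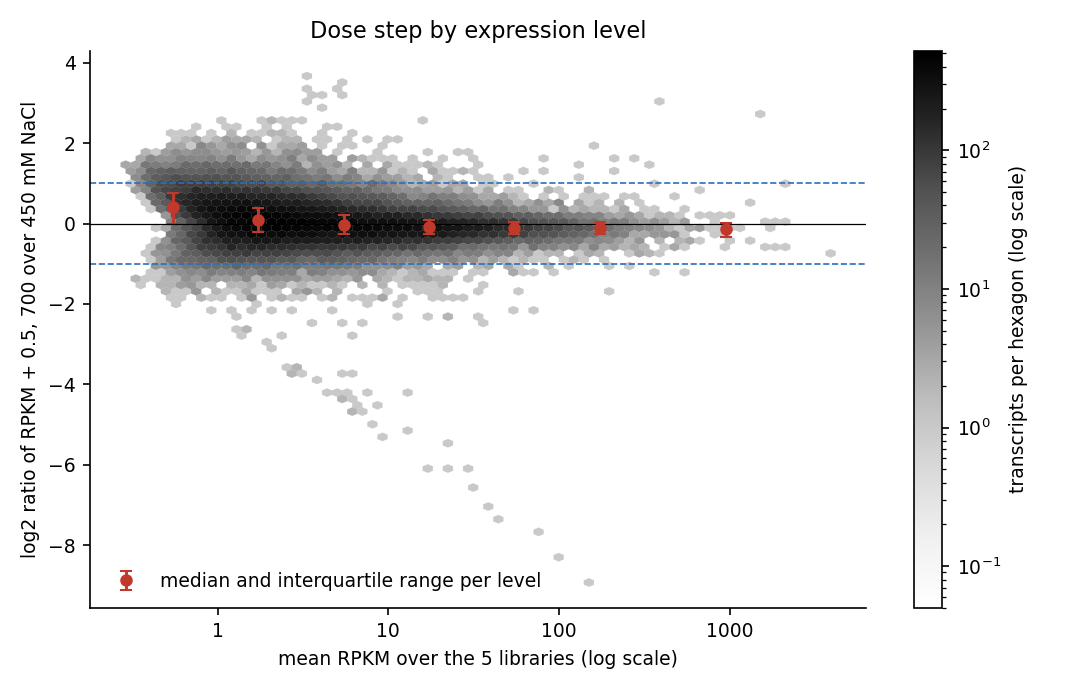
Log2 ratio of RPKM + 0.5 at 700 mM over 450 mM NaCl (vertical axis) against mean RPKM over the 5 libraries (log axis) for 67930 transcripts, shaded by the number in each hexagon. Red points, drawn at the middle of each level, are medians with interquartile ranges, which go from 0.41 under RPKM 1, where the filter decides which transcripts enter, to −0.14 at 300 and over. Dashed lines mark 2-fold.

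Calls were concentrated among low transcripts as well, with the same bond between the filter and the lowest level. Below a mean RPKM of 1, 1025 transcripts (12.7%) were higher and 173 (2.15%) lower. At 1 to 3, the numbers were 960 (3.66%) and 320 (1.22%), and at 3 to 10 they were 303 (1.57%) and 216 (1.12%). Among all 14301 transcripts with a mean RPKM of at least 10, 77 were higher (0.538%) and 99 lower (0.692%). The excess of higher transcripts was thus carried by transcripts under a mean RPKM of 10, of which 2288 were higher and 709 lower. These levels include the 700 mM value. With levels from the 3 libraries outside the step the excess lay under RPKM 3 only, since 214 were higher and 237 lower at 3 to 10. A call at low level rests on few reads. Under a mean RPKM of 1, the median was 23 reads at 450 mM and 32 at 700 mM, against 944 and 858 at 10 to 30.

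**Figure D2:**
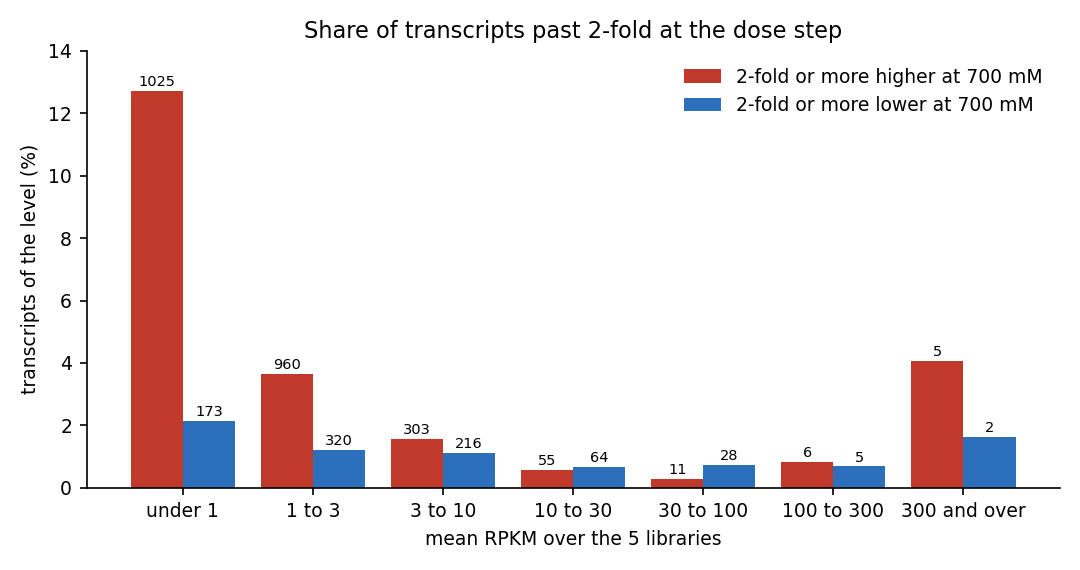
Share of transcripts at each mean RPKM level that were 2-fold or more higher (red) or lower (blue) at 700 mM than at 450 mM NaCl, with the number of transcripts above each bar. The higher share goes from 12.7% under RPKM 1 to 0.286% at 30 to 100, and the 7 calls at RPKM 300 and over come from 123 transcripts.

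The 2365 transcripts higher at the step lay below the median of all transcripts in each library, least so at 700 mM. Their median RPKM was 1.04 in the water control, 0.633 at 450 mM and 2.28 at 700 mM, against 2.97, 2.71 and 2.84 for all transcripts compared. In the submerged libraries they stood at 0.53 in water and 0.696 in 450 mM NaCl. The 700 mM library was therefore the one in which the set stood highest, and its median at 450 mM lay below that of the control. The median log2 ratio to control was −0.32 at 450 mM and 0.95 at 700 mM. These ratios share the 450 mM or the 700 mM library with the step, so their signs are partly set by how the transcripts were chosen. Together the 2365 held 3.28% of the RPKM of all transcripts compared at 700 mM and 1.07% at 450 mM.

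The 808 transcripts lower at the step stood at a median RPKM of 2.01 in the control, 2.34 at 450 mM and 0.605 at 700 mM. Under water they stood at 2.90 without salt and 2.42 in 450 mM NaCl. The 700 mM library was the one in which the set stood lowest. Its median log2 ratios to control were 0.36 at 450 mM and −0.99 at 700 mM, with the same shared libraries. The 808 held 0.23% of the RPKM at 700 mM and 0.796% at 450 mM.

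Transcripts that moved only at the step were defined as those past 2-fold between 450 mM and 700 mM whose log2 ratio of 450 mM to the control lay within 0.5 of 0. Of the 67930 transcripts, 55223 (81.3%) met the condition on 450 mM. Those higher only at the step numbered 1344 (1.98% of all compared) and those lower only at the step 428 (0.63%), so 75.8% of these 1772 were higher. Their medians give the pattern in levels. The 1344 had a median RPKM of 0.785 in control plants, 0.709 at 450 mM and 2.42 at 700 mM, and the 428 had medians of 2.41, 2.47 and 0.776. Against the control, the library shared by the rule, the median log2 ratio at 700 mM was 1.14 for the higher and −1.15 for the lower set. With 450 mM held within 0.25 of the control the numbers were 726 and 213, and within 1 they were 2048 and 678.

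**Figure D3:**
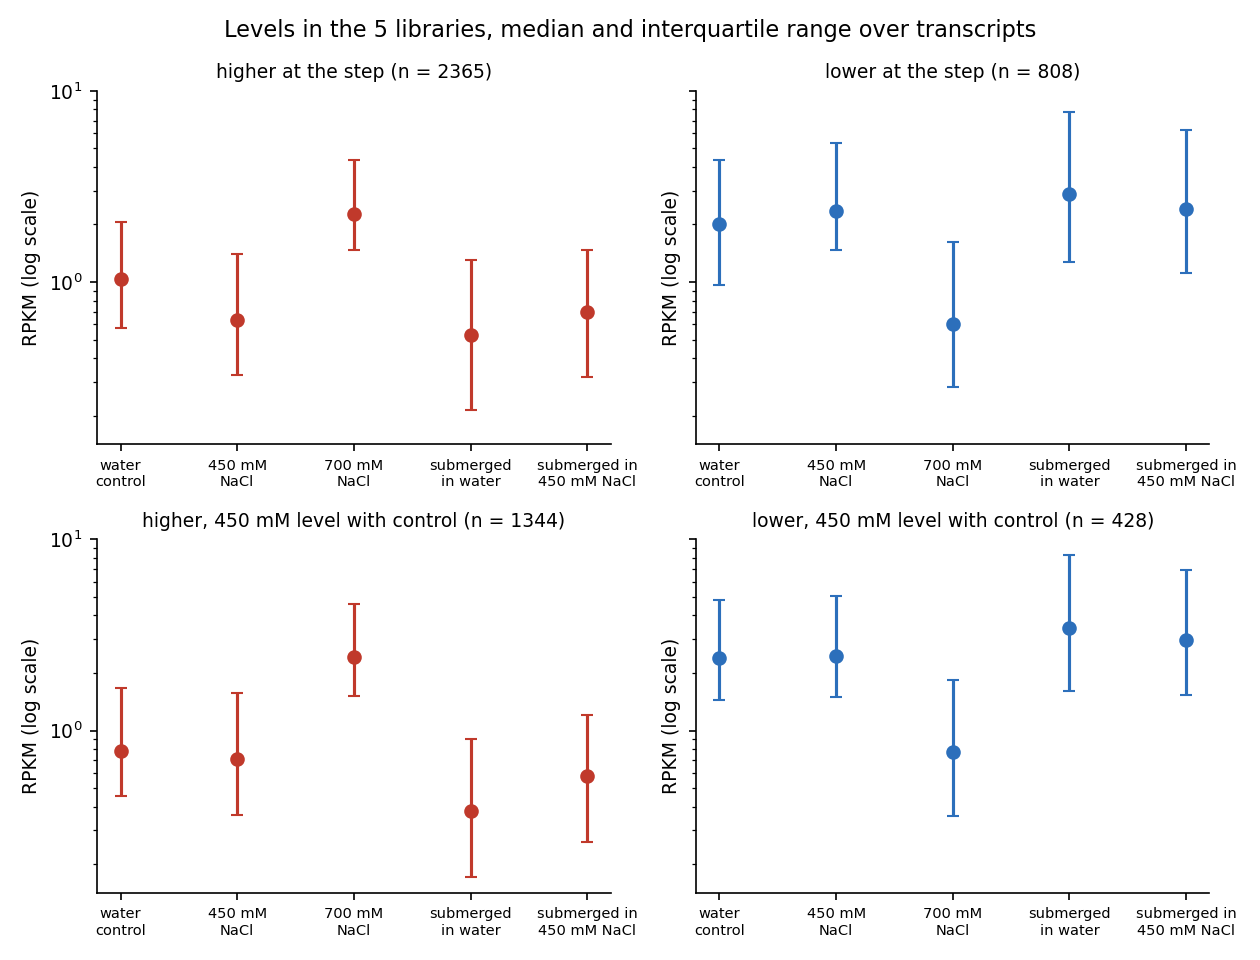
RPKM (log axis) in each of the 5 libraries for transcripts higher (n = 2365, red) and lower (n = 808, blue) at the step and for those that moved only at the step (n = 1344 and 428). Points are medians over transcripts and bars are interquartile ranges, not errors between plants. In the lower panels the control and 450 mM medians lie close together by the choice of transcripts, and 700 mM stands apart.

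The largest steps upward were named by a rule of size within the transcripts that reached RPKM 10 in either salt library. Pc_TC148198 had an RPKM of 12.3 in control plants, 0.499 at 450 mM and 10.1 at 700 mM. When submerged, its RPKM was 3.27 without salt and 0.731 with salt. It was 20.3-fold higher at 700 mM than at 450 mM (9.06 to 56.4), from 6 and 119 reads. This transcript was low in both libraries with 450 mM NaCl, and its level at 700 mM was near that of the control.

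The next transcripts of that list were also low at 450 mM, which a choice by the largest ratios favours. Pc_TC018355 had 8.63 RPKM in control plants, 0.653 at 450 mM, 10.6 at 700 mM, 3.92 under water and 1.44 under water with salt, 16.2-fold higher at the step (9.07 to 31.9). Pc_TC106350 stood at 6.33, 0.695, 10.7, 1.71 and 0.59 RPKM in the same order of libraries, 15.4-fold higher (9.30 to 27.4). Both were lower at 450 mM than in the control, and their ratios of 700 mM to control were 0.28 and 0.72 on the log2 scale. Their steps therefore include a low value at 450 mM.

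Others of the 6 exceeded the control at 700 mM by 2-fold or more. Pc_TC085022 had 5.48 RPKM in control plants, 1.21 at 450 mM, 14.5 at 700 mM, 3.44 under water and 1.42 under water with salt, and it was 11.9-fold higher at the step (8.31 to 17.7). Pc_TC000683 stood at 4.02, 1.45, 13.4, 0.487 and 2.23 RPKM, 9.29-fold higher (6.23 to 14.4). In all 6, the 450 mM value was the lowest of the 3 libraries of plants not submerged, and since the ratio that chose them has 450 mM below the line, no more is read from this. The most abundant of them, Pc_TC054490, is described with the abundant transcripts.

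Transcripts that moved only at the step were named by the same rule of size. Pc_TC016820 (1247 nt) had RPKM values of 4.84 (control), 5.17 (450 mM) and 24.3 (700 mM), with 342, 386 and 1769 reads, and was 4.69-fold higher at the step (4.20 to 5.25). Its RPKM was 14.7 under water without salt and 3.73 with salt, so it was high in 2 libraries, 1 with and 1 without salt. Pc_TC136956 stood at 3.95, 3.58 and 17.5 RPKM in the control, 450 mM and 700 mM libraries, 4.89-fold higher (3.53 to 6.90), and at 1.57 and 0.636 under water without and with salt.

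The remaining transcripts of this group were higher in the 700 mM library than in each of the other 4. Pc_TC144262 had 1.43 RPKM in control plants, 2.21 at 450 mM, 10.3 at 700 mM, 1.19 under water and 1.02 under water with salt, 4.66-fold higher at the step (3.14 to 7.11). Pc_TC025105 stood at 3.83, 2.94, 11.6, 0.822 and 0.823 RPKM in that order, 3.95-fold higher (3.32 to 4.74). Pc_TC120144 stood at 3.38, 2.59, 10.3, 0.888 and 0.724 RPKM, 3.96-fold higher (3.30 to 4.79). The last pair had nearly the same profile in all 5 libraries. Whether they are copies or pieces of 1 gene was not tested.

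The most abundant transcripts had narrow counting intervals, because of their reads, and these intervals do not cover the spread between plants. Pc_TC035092 (2875 nt) had 1532 RPKM in control plants, 595 at 450 mM, 3904 at 700 mM, 1078 under water and 847 under water with salt. It was 6.56-fold higher at the step (6.52 to 6.60) and moved from rank 46 among all transcripts at 450 mM to rank 1 at 700 mM. Its gain of 3309 RPKM was the largest of any transcript compared and made up 5.08% of the summed gain over 34716 transcripts with a positive difference. Pc_TC001301 (2366 nt) had 2323 RPKM in control plants, 1719 at 450 mM, 3442 at 700 mM, 1752 under water and 1783 under water with salt. Its log2 ratio of 1.0 lies at the limit and drops to 0.95 after median-of-ratios scaling. Pc_TC054490 (510 nt) stood at 316, 138, 1095, 246 and 201 RPKM in the same order and was 7.92-fold higher at the step (7.67 to 8.18). All 3, chosen by their gain, had their lowest value at 450 mM and their highest at 700 mM.

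Further transcripts past 2-fold with a mean RPKM of at least 100 are listed after their values were seen. Pc_TC000919 had 301 RPKM in control plants, 235 at 450 mM, 660 at 700 mM, 247 under water and 240 under water with salt, 2.80-fold higher at the step (2.78 to 2.83). Pc_TC009959, Pc_TC069488, Pc_TC036386 and Pc_TC044796 were likewise highest at 700 mM, with steps of 3.61-, 3.23-, 3.22- and 2.92-fold. They were lower at 450 mM than in the control, by log2 ratios of −0.54, −0.43, −0.35 and −0.51, and had their lowest value in a submerged library. In these 5, as in the 3 above, values under water lay between 73.2 and 1783 RPKM and below those at 700 mM.

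A different shape was found in Pc_TC000830 (2274 nt), with 296 RPKM in control plants, 425 at 450 mM, 850 at 700 mM, 27.0 under water and 97.9 under water with salt. Pc_TC030583 stood at 109, 162, 344, 11.1 and 38.0 RPKM, and Pc_TC012290 at 197, 209, 498, 61.6 and 68.3. Their steps were 2.0-, 2.12- and 2.38-fold. These 3 were lowest when submerged in water, and each stood higher at each step of dose. For Pc_TC012290 the log2 ratio of 450 mM to control was only 0.08. The log2 ratio of Pc_TC000830 was 0.95 after median-of-ratios scaling, under the limit.

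**Figure D4:**
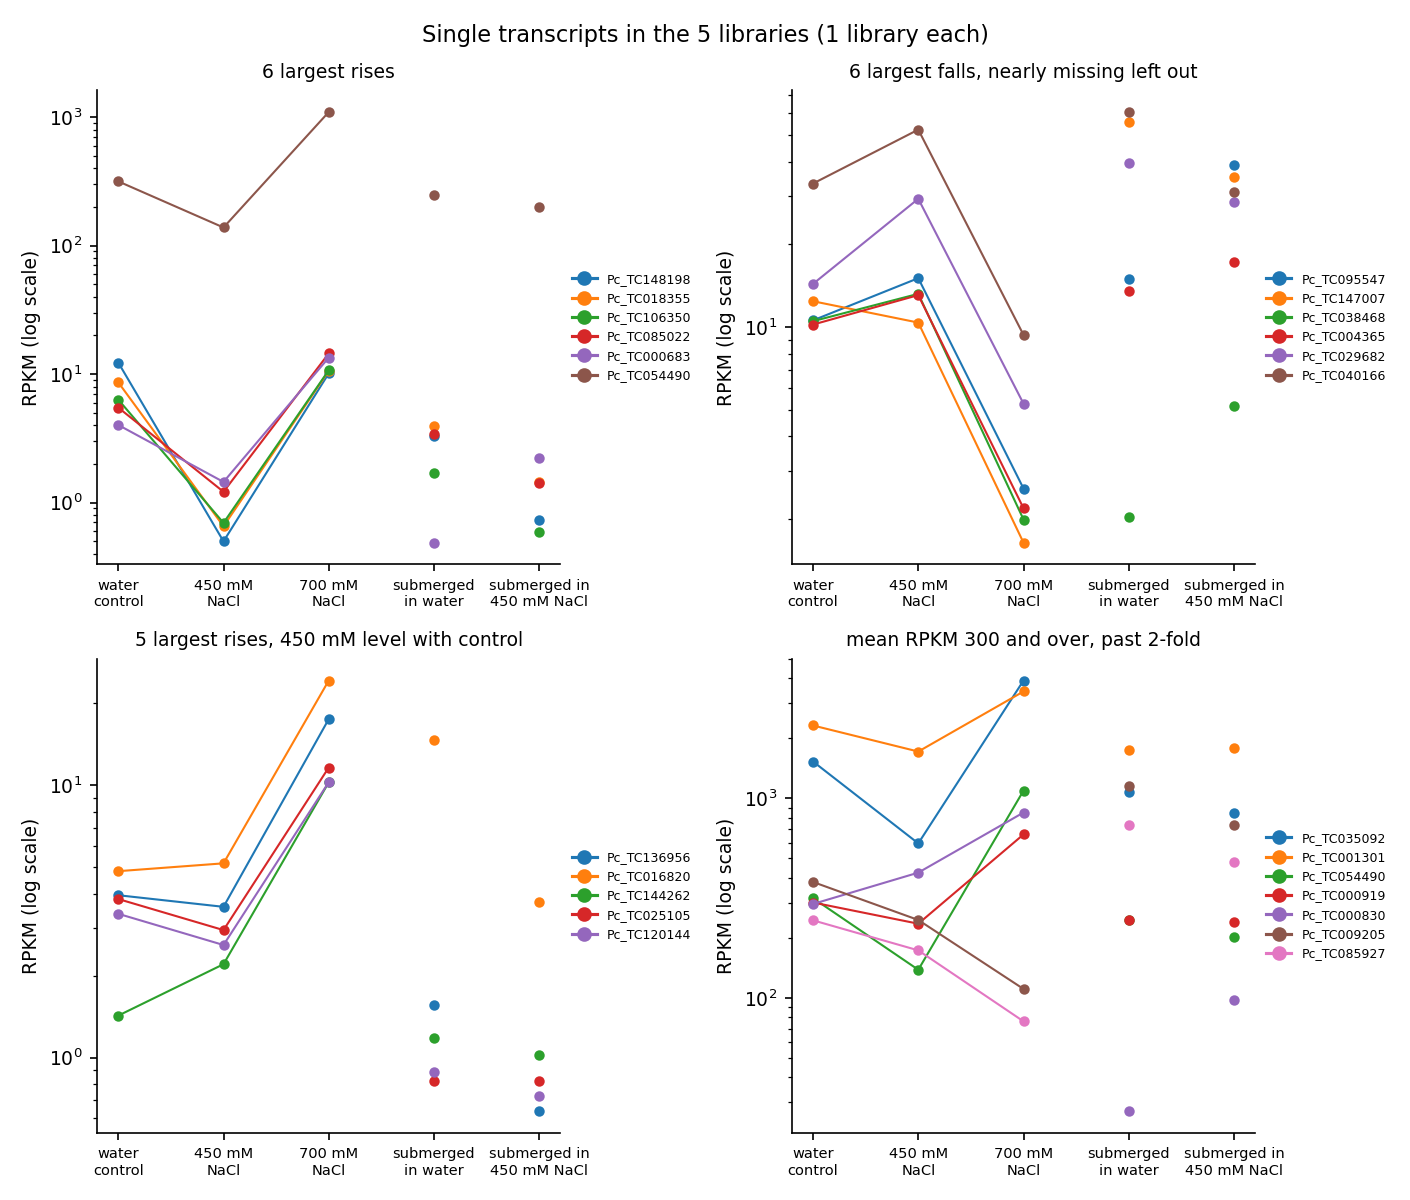
RPKM (log axis) of single transcripts in the 5 libraries, 1 library per treatment. Lines join the control, 450 mM and 700 mM NaCl libraries. The 6 largest steps upward have their low point of these 3 at 450 mM, which their choice favours, the 5 that moved only at the step are level up to 450 mM by their choice, and among abundant transcripts 5 were higher and 2 lower at 700 mM.

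The largest differences downward by the rule came from transcripts that were nearly missing from the 700 mM library. Pc_TC014070 (2606 nt) had 64.7 RPKM in control plants, 278 at 450 mM, 0.0722 at 700 mM, 309 under water and 126 under water with salt. It had 43336 reads at 450 mM and 11 at 700 mM, 3848-fold lower (2151 to 7709.5). Pc_TC016641 had 18695 and 6 reads, Pc_TC150201 had 5591 and 3, and Pc_TC012499 had 13418 and 6. Pc_TC107425 had 5277 and 2 reads, and Pc_TC097785 had 1864 and 2. In all 6, the 450 mM library held more RPKM than the control, with log2 ratios from 0.77 to 3.62, and a choice by the largest differences downward favours a high value there.

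How many transcripts behaved so was counted after these values were seen. A transcript was taken as nearly missing from a library when it stood under 5% of the mean RPKM of the other 4 libraries, with at least 100 reads in those 4 together. Among the 67930 transcripts compared there were 60 such transcripts at 700 mM, 5 at 450 mM and 4 in the control. Under water there were 555 without salt and 55 with salt. Values of 0 do not enter these counts, so they do not rank the libraries by missing transcripts. Of all listed transcripts, 140749 were above 0 at 700 mM, 145610 at 450 mM and 146599 in the control. Under water 146477 were above 0 without salt and 146441 with salt. The 60 had a median of 2 reads at 700 mM (1 to 13), and of 195.5 reads at 450 mM. Their median RPKM was 2.96 in the control, 6.62 at 450 mM, 0.0557 at 700 mM, 6.88 under water and 2.20 under water with salt. All 60 were among the 808 lower transcripts, and 44 of them were among the 64 at 4-fold or more. Without them 20 transcripts were lower by 4-fold or more, against 75 higher, and the lowest log2 ratio was −2.75 instead of −8.93. A value of 0 at 700 mM, which the filter removes, and 1 or a few reads, which it keeps, differ little in depth.

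Outside that set the downward steps were smaller, in transcripts chosen here after their values were seen. Pc_TC038468 (1511 nt) had 10.5 RPKM in control plants, 13.2 at 450 mM, 1.99 at 700 mM, 2.04 under water and 5.18 under water with salt, 6.63-fold lower at the step (5.65 to 7.81). It was low at 700 mM and in both submerged libraries. Pc_TC040166 (1194 nt) stood at 33.3, 52.3, 9.36, 60.6 and 31.0 RPKM in that order, from 3735 reads at 450 mM and 653 at 700 mM. Pc_TC029682 stood at 14.4, 29.3, 5.26, 39.5 and 28.5 RPKM. Both were lowest at 700 mM and highest under water without salt.

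By the rule for transcripts lower only at the step, the first pair, Pc_TC010164 and Pc_TC110098, also belonged to the nearly missing set, with 657 and 2 reads and with 1637 and 1 read at 450 mM and 700 mM. Pc_TC010164 was 321-fold lower (88.5 to 2655). Pc_TC038468 came next. Pc_TC147007 had 12.4 RPKM in control plants, 10.4 at 450 mM, 1.64 at 700 mM, 55.5 under water and 35.1 under water with salt, 6.33-fold lower at the step (3.98 to 10.5). Pc_TC095547 stood at 10.6, 15.1, 2.58, 15.0 and 38.8 RPKM, 5.83-fold lower (4.43 to 7.78). Except for Pc_TC038468, the transcripts of this group were at or above the control level under water without salt.

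Abundant transcripts lower at 700 mM, with a mean RPKM of at least 100 over the 5 libraries, numbered 7, against 11 that were higher. With levels from the 3 libraries outside the step the balance turned. At 100 to 300 there were then 7 higher and 9 lower, and at 300 and over 2 higher and 3 lower. Of the 7 lower by the mean over the 5 libraries, 5 had a like profile. Pc_TC009205 (2535 nt) had 381 RPKM in control plants, 246 at 450 mM, 111 at 700 mM, 1153 under water and 734 under water with salt, 2.22-fold lower at the step (2.18 to 2.26). Pc_TC085927 stood at 245, 173, 76.2, 739 and 480 RPKM, 2.27-fold lower (2.14 to 2.40). Pc_TC031921 stood at 143, 83.2, 40.8, 510 and 239 RPKM, and Pc_TC040098 at 221, 130, 64.7, 618 and 340 RPKM. Pc_TC005368 stood at 74.2, 68.6, 31.6, 250 and 148 RPKM. In these 5, each higher dose had a lower value, and both submerged libraries stood above the control. The other two, Pc_TC094833 (104, 186, 55.9, 211 and 422 RPKM) and Pc_TC014070, described above, were higher at 450 mM than in the control. The largest losses in RPKM were those of Pc_TC038631 (3272 at 450 mM and 2073 at 700 mM), Pc_TC117680 (3332 and 2348) and Pc_TC001241 (1572 and 979), each under 2-fold. Pc_TC038631 stood at 6700 RPKM and Pc_TC001241 at 3164 under water, and Pc_TC117680 at 784 there.

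The submerged libraries and the control are no part of the step ratio, so their contrast is measured apart from it. Over all levels together, transcripts higher at 700 mM than at 450 mM tended to be lower under water than in the control. Those lower at 700 mM tended to be higher there. The median log2 ratio of submergence in water to control was −0.50 for the 2365 higher transcripts and 0.48 for the 808 lower ones, against −0.08 for all 67930. This background is not matched in level. Under a mean RPKM of 1, where 1025 of the 2365 lie, the higher set was like all transcripts (−0.42 and −0.43). The lower set stood at −0.02 there. Of the 2365, 616 were lower under water by 2-fold or more (26.0%, where 12.6% of all were) and 78 were higher (3.30%, where 6.36% of all were). Of the 808, 225 were higher (27.8%) and 41 lower (5.07%). Without the 60 nearly missing transcripts, 185 of 748 were higher (24.7%), with a median of 0.44. Submergence in 450 mM NaCl against the control gave the same order, since 417 of the 2365 were lower (17.6%, where 5.97% of all were) and 118 of the 808 were higher (14.6%, where 2.36% of all were).

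With RPKM of at least 10 in either salt library, the 203 higher transcripts had a median log2 ratio of submergence to control of −1.29 and the 107 lower ones of 1.02, against −0.16 for all 14787. Of the 203, 117 were lower under water (57.6%, background 18.4%), and of the 107, 54 were higher (50.5%, background 4.56%). A higher transcript reaches RPKM 10 through the 700 mM library and a lower one through the 450 mM library, and only 77 higher and 99 lower transcripts had a mean RPKM of at least 10. By mean level the sets stood on opposite sides of all transcripts at each level from RPKM 1 to 300. At 1 to 3 the medians were −0.50 for higher, −0.07 for all and 0.44 for lower transcripts, and at 3 to 10 they were −1.08, 0.05 and 0.76. At 10 to 30 they were −0.64, 0.01 and 0.91, at 30 to 100 −0.73, −0.09 and 1.37, and at 100 to 300 −0.60, −0.27 and 1.74. By these levels, which include the 700 mM value that chose the set, the higher set lay farthest from all transcripts at 3 to 10. Its median was close to that of all under RPKM 1 (−0.42 and −0.43) and above it at 300 and over (−0.41 and −0.49, from 5 transcripts). With levels from the 3 libraries outside the step the ranking differed. Under RPKM 1, which then held 1373 higher transcripts, the medians of higher and all transcripts did not differ (−0.52 and −0.53). These medians were −0.40 and −0.09 at 1 to 3, −0.49 and 0.10 at 3 to 10, and −0.23 and 0.08 at 10 to 30. At 30 to 100 they were −0.68 and −0.0052 (5 higher transcripts). At 100 to 300 they were −0.48 and −0.02 (7 higher), and at 300 and over −0.46 and −0.15 (2 higher). Across the 14787 transcripts, Pearson's r between the log2 ratios of the step and of submergence was −0.42 and Spearman's rho was −0.49, and across all 67930 r was −0.29. The points are transcripts, which share the same 4 libraries and are no replicates.

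Salt under water gave the other contrast without a library of the step. The log2 ratio of submergence in 450 mM NaCl to submergence in water had a median of 0.12 in the 2365 higher transcripts, −0.18 in the 808 lower ones and 0.02 in all. By mean level, the higher set did not stand above all transcripts under RPKM 1 (0.11 and 0.12), where 1025 of the 2365 lie. It stood above them at 1 to 3 (0.11 and −0.0040), at 3 to 10 (0.30 and −0.02), at 10 to 30 (0.58 and 0.03) and at 30 to 100 (0.63 and 0.10). At 100 to 300 (0.01 and 0.22, from 6 higher transcripts) and at 300 and over (−0.04 and 0.36, from 5) it stood below them. These levels include the 700 mM value that chose the set. By mean level over the libraries outside the step the order was kept, but the higher medians from 3 to 100 were smaller. They were 0.11 at 3 to 10, 0.15 at 10 to 30 and 0.23 at 30 to 100, against −0.04, −0.0083 and 0.05 for all. The lower set stood below all transcripts at every level. Within the transcripts that reached RPKM 10 in either salt library the medians of higher, lower and all transcripts were 0.68, −0.37 and 0.13. Higher transcripts enter that range through the 700 mM library and lower ones through the 450 mM library, the values that chose them. The background there is therefore not matched in level, and its shares are given as description only. In that range, 77 of the 203 higher transcripts were also higher by 2-fold or more with salt under water (37.9%, background 9.67%). Of the 107 lower transcripts, 28 were lower with salt under water (26.2%, background 0.899%). That count rested on the nearly missing transcripts, since without them 4 of 83 were lower (4.82%) and the median was −0.02.

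The sets that moved only at the step, whose rule used the control, can be set beside the same contrast. The 1344 higher only at the step had a median log2 ratio of salt under water of 0.17, and 118 were higher by 2-fold (8.78%, background 5.14%). That background is not matched in level. Of the 1344, 649 had a mean RPKM under 1, where the median of all transcripts was 0.12. The 428 lower only at the step had a median of −0.19, and 32 were lower (7.48%, background 1.88%). With RPKM of at least 10 in either salt library the medians were 0.70 for 130 transcripts and −0.24 for 48, or −0.14 for 46 without the nearly missing ones. Of the 48, 3 were lower by 2-fold or more (6.25%, background 0.899%) and 5 higher (10.4%, background 9.67%). Of the 46, 1 was lower (2.17%) and 5 higher (10.9%). The same limit on how transcripts enter that range holds here. The order of the medians was thus the one seen without the condition on the control, again without matching by level.

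**Figure D5:**
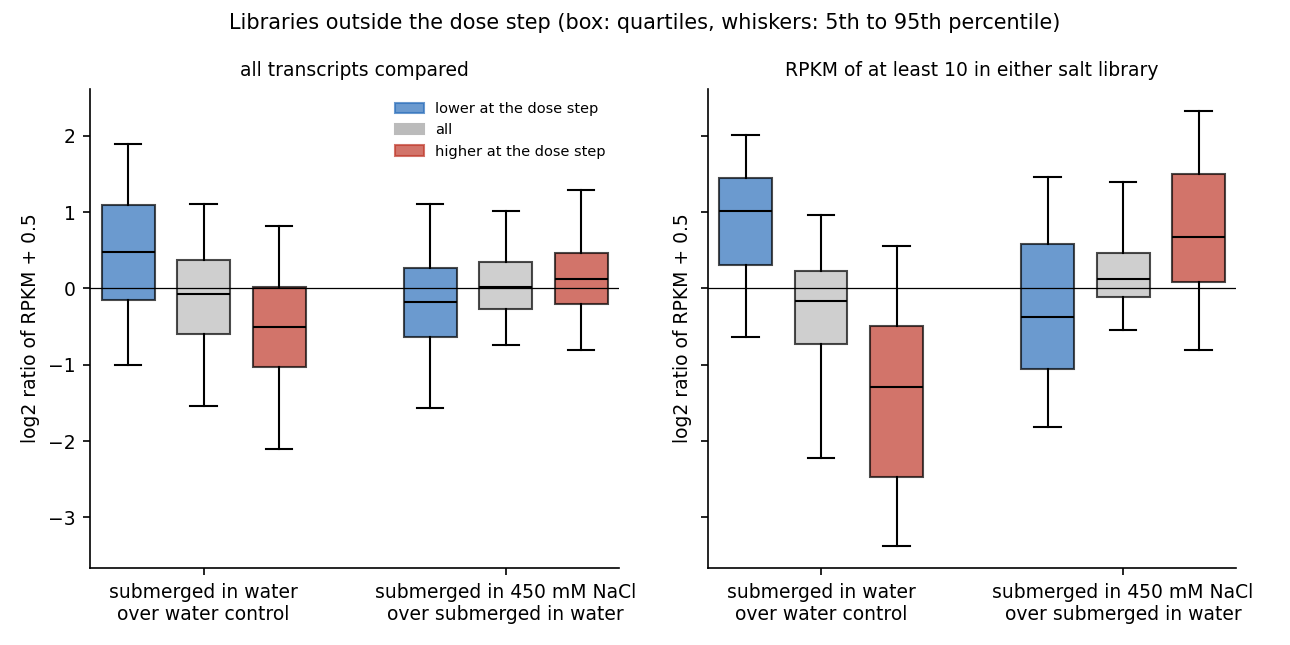
Log2 ratios of RPKM + 0.5 in contrasts that use no library of the dose step, for transcripts lower at 700 mM (blue), all compared (grey) and higher (red). Boxes are quartiles over transcripts and whiskers run from the 5th to the 95th percentile. For submergence against control the medians of the higher set are −0.50 over all levels and −1.29 at RPKM of at least 10. The higher set reaches that RPKM through the 700 mM library, and the grey boxes are not matched in level to the sets.

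Up to a mean RPKM of 100, transcripts past 2-fold were shorter in the median than all transcripts of their level, and above it they were not consistently so. Under RPKM 1 the median length was 359 nt for higher and 324 nt for lower transcripts, against 465 nt for all. At a mean RPKM of 1 to 3 the median length was 369.5 nt for higher and 349.5 nt for lower transcripts, against 560 nt for all. At 3 to 10 it was 432, 397.5 and 628 nt, at 10 to 30 it was 754, 606 and 1090 nt, and at 30 to 100 it was 775, 740.5 and 1435 nt. At 100 to 300 it was 641.5, 1942 and 1325 nt and at 300 and over 2366, 1460 and 1139 nt, from 6 and 5 higher and 5 and 2 lower transcripts. Short transcripts hold fewer reads at the same RPKM, and the part of read number in these lengths was not tested. The lengths are the smallest that give whole reads, so single values can be too low.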

How the data were processed

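Expression was measured by RNA sequencing in 5 libraries, 1 per treatment. The deposited values are RPKM, which the authors calculated per assembled transcript after filtering reads with NGS QC Toolkit and mapping them to *Porteresia* transcripts, per the series text. Libraries were made from total RNA (TRI reagent) with an Illumina mRNA kit, per the labels' protocols. The mapping program, versions and the treatment of reads shared by near-identical copies are not stated in the sources used here, so single members of such copies are uncertain.

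RPKM was compared as deposited. Reads, lengths (at least 200 nt) and library totals were solved from the RPKM steps and served only for counting intervals, lengths and the definition of nearly missing transcripts. Intervals are Clopper-Pearson. Calls and the solution were tested on simulated data. Python 3.11.15, NumPy 2.4.6, SciPy 1.17.1, pandas 2.3.3 and matplotlib 3.10.9 were used.

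Within transcripts that reached RPKM 10 in either salt library, the text names the 6 largest log2 ratios of the step in each direction, the 5 largest in each direction among those that moved only at the step, and the 3 largest gains and losses in RPKM. The others, named as such, were chosen after their values were seen. Thresholds, lists and alternatives were chosen with earlier results of these data known. Alternatives were other constants, filters, scalings and limits.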

Additional observations from a re-analysis of the deposited data

How the results depend on the processing

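No paired analysis was possible because each treatment has 1 library, and for the same reason no replicate could be left out. Of 114 recomputed summary values, 64 kept their value within the limits used. These limits were 1.5 times for counts and the exact interval for shares and medians of the step. For medians outside the step the limit was the interquartile range over transcripts, which is wide. The 64 include values for calls beyond counting error, which the call rule largely set in advance. In the order higher, lower, higher 4-fold, lower 4-fold, higher only and lower only at the step, the main counts were 2365, 808, 75, 64, 1344 and 428. Adding 0.1 gave 4441, 1831, 539 and 199, and 960 lower only, with 70.8% of calls higher. Adding 1 gave 1023 and 338, 25 higher at 4-fold, and 677 and 171 only at the step. RPKM of at least 5 gave 503 and 214, 36 higher at 4-fold, 306 and 110 only at the step, and 70.2% higher. RPKM of at least 0.5 in all 5 libraries gave 802, 438, 26, 15, 413 and 280, with 64.7% higher. Without the demand on zeros 2600 were lower, 1110 of them by 4-fold, and 52.1% of calls were higher. The higher share was 77.0% with values above 0 asked of both salt libraries only, 67.5% after median-of-ratios scaling and 77.2% with equal sums of RPKM. Limits of 0.25 and 1 for the step-only sets gave 726 and 213, and 2048 and 678. Without the nearly missing transcripts, an alternative chosen after seeing the data, 20 were lower by 4-fold.

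The median log2 ratio of the step (0.012) had no stable sign. It was −0.062 at RPKM of at least 5, −0.028 at RPKM of at least 0.5 in all 5 libraries and −0.040 after median-of-ratios scaling. It was 0.024 with no minimum, 0.0051 without the demand on zeros, 0.020 with values above 0 in both salt libraries and 0.039 with equal sums. With levels from the 3 other libraries, the medians from RPKM 3 upward were −0.040, −0.11, −0.12, −0.17 and −0.18. In transcripts with RPKM of at least 10 in either salt library, also chosen after seeing the data, the medians outside the step were −1.29 (submergence against control) and 0.68 (salt under water) for higher transcripts and 0.70 (salt under water) for those higher only at the step. Named transcripts kept their sign in all 200 recomputed values, but this was set in advance and is no check. Another constant cannot change the sign of a ratio. The scaling factors of the salt libraries differed by 0.054 or −0.026 on the log2 scale, less in size than the smallest named ratio (−0.13). Low read numbers limit calls under a mean RPKM of 1.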

Other observations

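The width of the dose step can be set beside the other contrasts on the 45824 transcripts with RPKM of at least 1 in all 5 libraries. The standard deviation of the log2 ratios over transcripts was 0.36 for 700 mM against 450 mM NaCl, 0.35 for 450 mM against the control and 0.44 for 700 mM against the control. For submergence in water against the control it was 0.76. In this set 363 transcripts were higher at the step and 266 lower by 2-fold or more. Several of these contrasts share a library, and the values describe single libraries.

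Gains and losses of RPKM at the step were spread unevenly. The 10 largest gains made up 14.3% of the summed gain, and the 10 largest losses 6.49% of the summed loss. Transcripts higher by 2-fold or more held 24.0% of the summed gain, while those lower by 2-fold or more held 5.56% of the summed loss. Most of the gain and most of the loss thus came from transcripts under 2-fold. The 3 largest losses in RPKM were among these.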
